A study of Mus musculus with 6 samples.

Results

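The genes of the unfolded protein response and of endoplasmic reticulum (ER) quality control were examined for open chromatin at their ends in mouse pancreatic islets. The set holds 34 named protein-coding genes of 21883 in the RefSeq gene table used (GRCm38), taken from the sensors, their effectors and targets, the chaperones and the degradation machinery. The rule uses no measured value, but the list was drawn up with earlier results of these data known. A gene is called marked in a library when a peak of that library overlaps 1000 bp on either side of either gene end. At least 1 library marked 29 of the 34, against 24.5% of all protein-coding genes, and 5 had no such peak in any library.

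Open chromatin was profiled by ATAC-seq, a method based on a transposase that cuts and tags accessible DNA. Islets came from 16-week-old mice and were infected with adenovirus for 48 h in culture, and about 50 islets were lysed for each library. The libraries fell into 3 groups of 2. Knockout-Acsl4 islets came from mice that lack Rictor in beta cells (βRicKO) and received an adenovirus carrying Acsl4, an acyl-CoA synthetase of polyunsaturated fatty acids. Knockout-GFP islets had the same genotype and received a GFP adenovirus. Control-GFP islets were labelled wildtype and received the GFP adenovirus, so that every group carried a virus and no group was free of it. Rictor is the subunit that sets the kinase complex mTORC2 apart from mTORC1. The sources used here do not name the Cre driver of the knockout. They also do not tell whether a group's libraries are from different mice, so the spread between them may be technical. Peak lists hold no expression values, so neither the loss of Rictor nor the level of Acsl4 was checked. In whole islets, fewer cells of a type and less open chromatin per cell cannot be told apart.

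The unfolded protein response is the reaction of a cell to misfolded protein in the ER, and it is prominent in beta cells, which fold large amounts of proinsulin. It has 3 sensors in the ER membrane, named PERK, IRE1 and ATF6. PERK phosphorylates the initiation factor eIF2α, which lowers general translation and raises ATF4. IRE1 splices the mRNA of the transcription factor XBP1, and ATF6 is cut in the Golgi to release a transcription factor. Their targets are ER chaperones, folding enzymes and the machinery of ER-associated degradation (ERAD), which returns misfolded proteins to the cytosol for the proteasome. XBP1 and ATF6 act through the ER stress response element (ERSE), a promoter sequence with a CCAAT box and a CCACG box at a fixed spacing.

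The ERSE was searched on both strands of RefSeq promoter stretches (GRCm38.p6), which run from 250 bases before to 50 bases after a gene start, in the form CCAAT, 9 bases of any kind, CCACG. A stretch matched 29 of the 34 genes. It held an ERSE in 9 of these 29, against 29 of 17491 protein-coding genes (0.166%). Thus 9 of the 29 genes with this element in the whole table belong to the set. The set was drawn in part from targets of XBP1 and ATF6, which act through the ERSE. This share is therefore no independent result about the set. The matches are shown because 9 of the 10 lay fully inside a peak of at least 1 library. Each is written in the direction of the motif with its fixed letters in capitals, and distances are in bp from the first base of the gene.
Creld2 (chr15:88819520-88819538, -126 to -108 from the gene start): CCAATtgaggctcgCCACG
Hspa5 (chr2:34772025-34772043, -65 to -47 from the gene start): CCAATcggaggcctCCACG
Hsp90b1 (chr10:86705638-86705656, -212 to -194 from the gene start): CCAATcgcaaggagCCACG
Hsp90b1 (chr10:86705533-86705551, -107 to -89 from the gene start): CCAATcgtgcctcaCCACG
Calr (chr8:84847075-84847093, -162 to -144 from the gene start): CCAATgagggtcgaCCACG
Canx (chr11:50325800-50325818, -145 to -127 from the gene start): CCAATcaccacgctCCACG
Pdia6 (chr12:17266491-17266509, -98 to -80 from the gene start): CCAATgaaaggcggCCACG
Dnajc3 (chr14:118937827-118937845, -105 to -87 from the gene start): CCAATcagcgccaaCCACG
Syvn1 (chr19:6046532-6046550, -44 to -26 from the gene start): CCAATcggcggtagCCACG
Derl3 (chr10:75893242-75893260, -156 to -138 from the gene start): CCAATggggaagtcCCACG

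The ERSE genes among the 34 code for the chaperones BiP (Hspa5), GRP94 (Hsp90b1), calreticulin (Calr), calnexin (Canx) and P58IPK (Dnajc3), the disulfide isomerase Pdia6, the secreted ER protein Creld2, and the ERAD proteins Syvn1 (the ligase HRD1) and Derl3. All 9 were marked in the libraries knockout-GFP 2 and control-GFP 1, against 17.3% and 16.7% of all genes. The set as a whole had 28 of 34 marked in each of them. Knockout-Acsl4 1 and 2 marked 2 and 0 of the 9, knockout-GFP 1 marked 4, and control-GFP 2 marked 1. Of the other 20 genes with an ERSE, 3 were marked in knockout-GFP 2 and 4 in control-GFP 1. Knockout-Acsl4 1 and 2 marked 1 and 0 of these 20, knockout-GFP 1 marked 2, and control-GFP 2 marked 0. Whether the element goes with marking was not tested. The peaks of Creld2, Hsp90b1, Canx, Pdia6, Dnajc3 and Derl3 covered their ERSE in every library that marked the gene. At Calr 3 of 4 peaks did so, and at Hspa5 1 of 4, that of knockout-GFP 2. The ERSE of Syvn1 extended past the edge of the nearest peak. A match is a description of the letters and does not show a bound site.

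The other motifs were found in 0 to 2 genes each. ERSE-II, ATTGG and CCACG with 1 base between them, was found in Dnajb11 and Herpud1, against 0.063% of all genes. The element TGATGCAA of ATF4 and CHOP was found in Atf3 and Herpud1, against 1.01% of genes. At Atf3 it lay from -110 to -103 bp and inside the peaks of all 4 libraries that marked the gene. The cyclic AMP response element TGACGTCA was found in Ppp1r15a, against 2.54% of genes. No stretch of the 29 held the XBP1 and ATF6 element TGACGTGG, which 0.823% of genes held. No match of one motif overlapped a match of another in these stretches.

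Promoter stretches are printed for 6 genes, each marked in 4 libraries by a peak over the stretch. They follow the order of the mean percentile of their peak scores within each list. Derl2, the other gene marked in 4 libraries, is left out because its peaks lay downstream of the stretch. All run 5′ to 3′ in the direction of the gene, and the start lies 50 bases before the right end. Capitals mark the motifs named above, over their whole length, and a match on the other strand is thus seen as its reverse complement.
Eif2ak3 (chr6:70844265-70844564, plus strand): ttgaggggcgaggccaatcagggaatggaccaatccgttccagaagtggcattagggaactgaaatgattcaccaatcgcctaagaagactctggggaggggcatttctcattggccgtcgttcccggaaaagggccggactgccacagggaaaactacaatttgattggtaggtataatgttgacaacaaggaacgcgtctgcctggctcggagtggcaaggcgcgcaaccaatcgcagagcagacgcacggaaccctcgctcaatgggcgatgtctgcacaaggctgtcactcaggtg
Calr (chr8:84846882-84847181, minus strand): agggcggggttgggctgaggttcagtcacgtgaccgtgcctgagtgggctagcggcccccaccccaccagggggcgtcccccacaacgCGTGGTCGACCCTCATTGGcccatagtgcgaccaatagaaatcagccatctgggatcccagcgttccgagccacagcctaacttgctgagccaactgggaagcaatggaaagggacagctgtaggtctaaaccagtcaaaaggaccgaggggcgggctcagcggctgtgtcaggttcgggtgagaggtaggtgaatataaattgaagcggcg
Hspa5 (chr2:34771840-34772139, plus strand): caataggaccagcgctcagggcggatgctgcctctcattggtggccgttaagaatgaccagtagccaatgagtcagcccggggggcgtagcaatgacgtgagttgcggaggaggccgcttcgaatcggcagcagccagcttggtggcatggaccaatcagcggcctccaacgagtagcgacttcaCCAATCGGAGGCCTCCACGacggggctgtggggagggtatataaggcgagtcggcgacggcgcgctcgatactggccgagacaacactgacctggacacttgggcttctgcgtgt
Creld2 (chr15:88819396-88819695, plus strand): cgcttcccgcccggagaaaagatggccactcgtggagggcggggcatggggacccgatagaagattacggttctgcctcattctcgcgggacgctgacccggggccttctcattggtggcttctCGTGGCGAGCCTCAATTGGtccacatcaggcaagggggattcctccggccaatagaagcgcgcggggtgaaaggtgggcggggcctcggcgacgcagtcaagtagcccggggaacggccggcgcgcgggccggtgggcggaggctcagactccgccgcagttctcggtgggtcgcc
Dnajb11 (chr16:22857595-22857894, plus strand): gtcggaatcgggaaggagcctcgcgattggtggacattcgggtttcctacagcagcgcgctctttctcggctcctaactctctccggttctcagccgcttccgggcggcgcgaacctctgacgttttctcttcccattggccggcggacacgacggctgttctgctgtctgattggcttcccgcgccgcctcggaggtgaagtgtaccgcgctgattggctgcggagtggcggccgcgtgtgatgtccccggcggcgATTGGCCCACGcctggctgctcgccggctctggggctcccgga
Atf3 (chr1:191183284-191183583, minus strand): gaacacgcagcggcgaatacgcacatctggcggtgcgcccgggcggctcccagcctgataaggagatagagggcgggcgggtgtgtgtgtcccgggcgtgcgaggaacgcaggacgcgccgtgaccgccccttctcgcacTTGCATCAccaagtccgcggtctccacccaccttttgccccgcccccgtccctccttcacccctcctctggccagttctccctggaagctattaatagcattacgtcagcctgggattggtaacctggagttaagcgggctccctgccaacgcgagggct

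The stretch of Eif2ak3 held none of the 5 motifs, and those of Dnajb11 and Atf3 held an ERSE-II and a TGATGCAA match in place of an ERSE.

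The libraries differed widely before any gene was considered. The lists held 525 and 5874 peaks in knockout-Acsl4 1 and 2, 2206 and 4257 in knockout-GFP 1 and 2, and 4442 and 1628 in control-GFP 1 and 2. Read depth was not among the sources used here. Peaks at gene ends made up 35.8% (95% Clopper-Pearson interval 31.7 to 40.1) and 5.28% (4.72 to 5.88) of the lists in knockout-Acsl4 1 and 2. The shares were 67.1% (65.1 to 69.0) and 75.5% (74.1 to 76.7) in knockout-GFP 1 and 2, and 70.9% (69.5 to 72.2) and 21.7% (19.7 to 23.8) in control-GFP 1 and 2. These intervals cover counting error only. Of 10 beta cell markers, Nkx6-1 and Mafa were marked in knockout-GFP 2 and control-GFP 1, and no library marked Ins1, Ins2, Pdx1 or the other 5. No library marked any of 8 markers of other endocrine cells or of 10 endothelial, stromal and immune markers, and 1 of 10 acinar and ductal markers was marked, in knockout-GFP 2. The lists of knockout-Acsl4 1 and 2 and control-GFP 2 hold few gene-end peaks, so comparisons are also given with each library left out in turn. A comparison with knockout-Acsl4 then still rests on the other knockout-Acsl4 list, and none can be given without both.

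Most of the 34 genes were marked in knockout-GFP 2 and control-GFP 1, fewer in knockout-GFP 1, and at most 4 in each of the other libraries. The counts were 2 and 1 of 34 in knockout-Acsl4 1 and 2, 13 and 28 in knockout-GFP 1 and 2, and 28 and 4 in control-GFP 1 and 2. Over all protein-coding genes the marked share was 1.02% and 1.57% in knockout-Acsl4 1 and 2, 8.19% and 17.3% in knockout-GFP 1 and 2, and 16.7% and 2.00% in control-GFP 1 and 2. The count of 28 equals 82.4% of the set, and those in knockout-Acsl4 1 and 2 amount to 5.88% and 2.94%. Their marked share is a description and was not tested. Libraries of 1 group differed widely, with 28 and 13 marked genes in knockout-GFP and 28 and 4 in control-GFP. In 4 libraries 7 of the 34 were marked, against 1.62% of all genes marked in 4 or more, and no gene of the set was marked in 5 or 6.

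**Figure D1:**
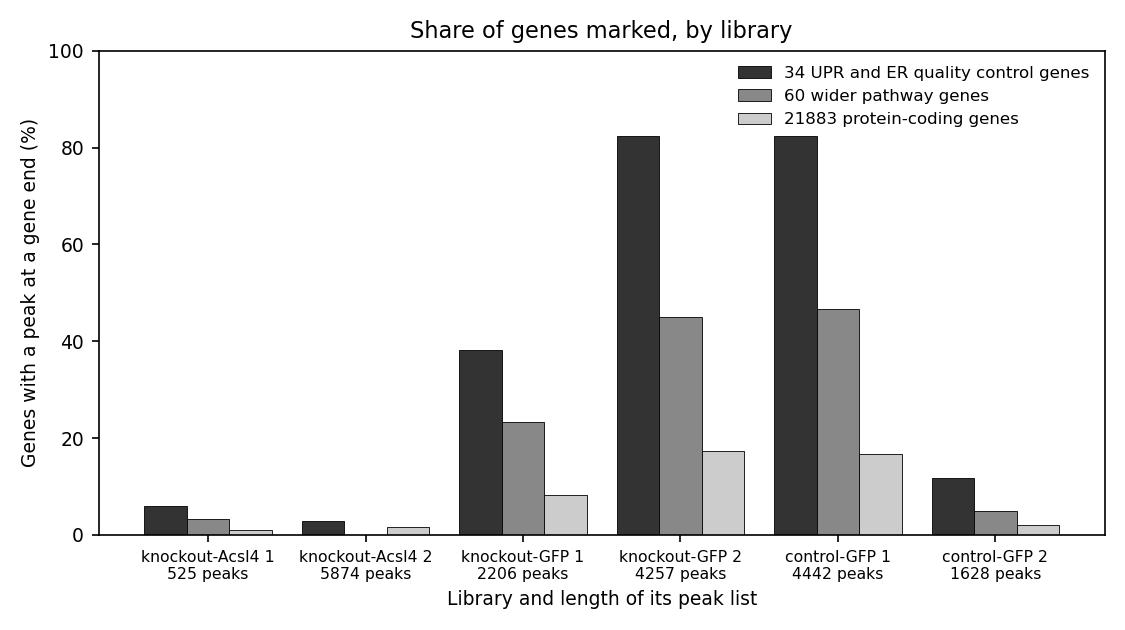
Share of genes with a peak at a gene end (y axis, percent) in each library (x axis, with the number of peaks in its list), for the 34 genes, for 60 other genes of the pathway and for all 21883 protein-coding genes. The dark bars of knockout-GFP 2 and control-GFP 1 stand at 82.4%, and those of knockout-Acsl4 1 and 2 at 5.88% and 2.94%.

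The chaperones and folding enzymes were the only arm marked in full in both knockout-GFP 2 and control-GFP 1. All 11 were marked in each, against 17.3% and 16.7% of all genes. The ERAD genes had 7 of 10 marked in each of these libraries, and the PERK arm 5 of 7. The IRE1 arm had 3 of 3 in knockout-GFP 2 and 2 of 3 in control-GFP 1, and the ATF6 arm 2 of 3 and 3 of 3. Knockout-GFP 1 marked 5 chaperones and folding enzymes, 3 ERAD genes, 3 genes of the PERK arm, and 1 in each of the IRE1 and ATF6 arms. In the lists with few gene-end peaks, knockout-Acsl4 1 marked 1 chaperone and 1 gene of the ATF6 arm. Knockout-Acsl4 2 marked 1 gene of the PERK arm, and control-GFP 2 marked 2 chaperones, 1 ERAD gene and 1 gene of the PERK arm. Arms of 3 genes are too small for their counts to be ranked.

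**Figure D2:**
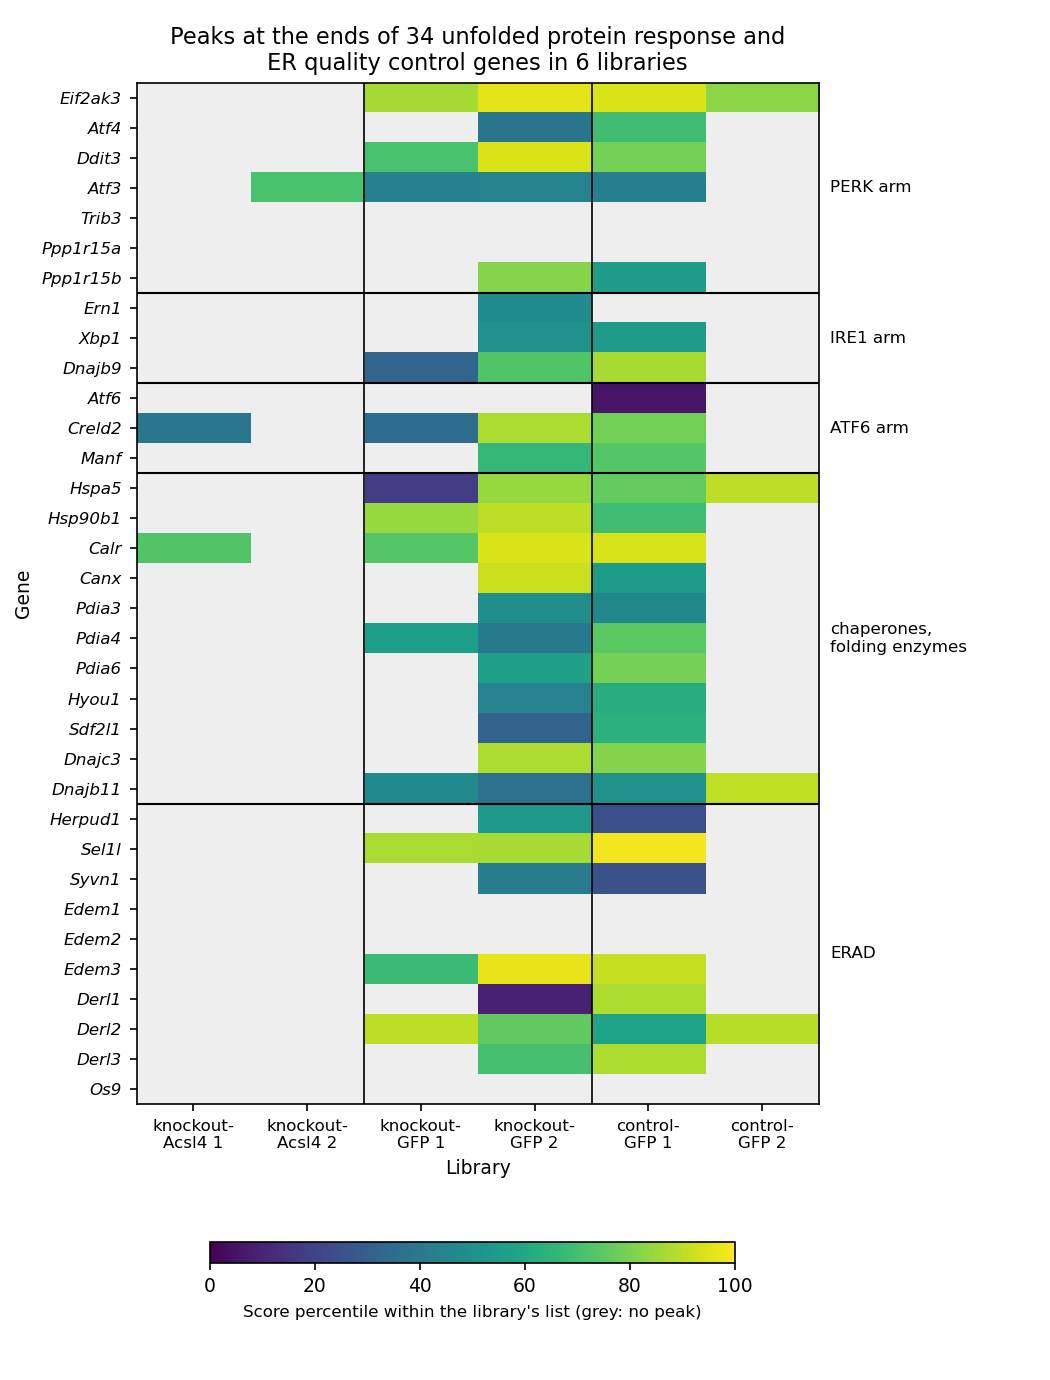
Rows are the 34 genes by arm and columns the 6 libraries. Colour gives the score percentile of the strongest gene-end peak within its own list (0 to 100), and grey means no peak; the columns knockout-GFP 2 and control-GFP 1 are filled in 28 rows each and those of knockout-Acsl4 1 and 2 in 2 and 1.

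Open regions sat at the gene start wherever the strand was known. The set carried 76 gene-end peaks in the 6 libraries together. Strand was known for 24 of the 29 marked genes, which held 67 of these peaks. All 67 lay at the gene start and none at the other end. Over all protein-coding genes 95.9% of such peaks lay at the start. The centre of the peak was upstream of the start in 56 of 67 cases, against 4725 of 8156 over all genes. Its median position was -107.5 bp, with a range of -294.0 to 402.0 bp, against a median of -30.0 bp over all genes. Of the 67 peaks 34 spanned the first base of the gene. Widths ran from 110 to 591 bp, with a median of 274.0 bp, against 228.0 bp over all genes. Xbp1 and Derl2 differed from the other genes, since all of their peaks lay inside the gene, and so did the control-GFP 1 peak of Syvn1.

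Peaks of different libraries fell on the same place. Of the 27 genes marked in 2 or more libraries, 26 had peaks that overlapped in every pair of libraries. Of all 74 pairs, 73 overlapped by at least 1 bp. Overlap was not counted over all genes, where 89.1% of peaks at the start were centred within 400 bp of it. The stretch common to all marking libraries was 11 to 328 bp long, with a median of 184.5 bp. It was longest at Eif2ak3 (chromosome 6, 70844261 to 70844588) and shortest at Derl1, with 11 bp. The exception was Syvn1, whose peak spanned 6046430 to 6046547 of chromosome 19 in knockout-GFP 2 and 6046741 to 6046955 in control-GFP 1.

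**Figure D3:**
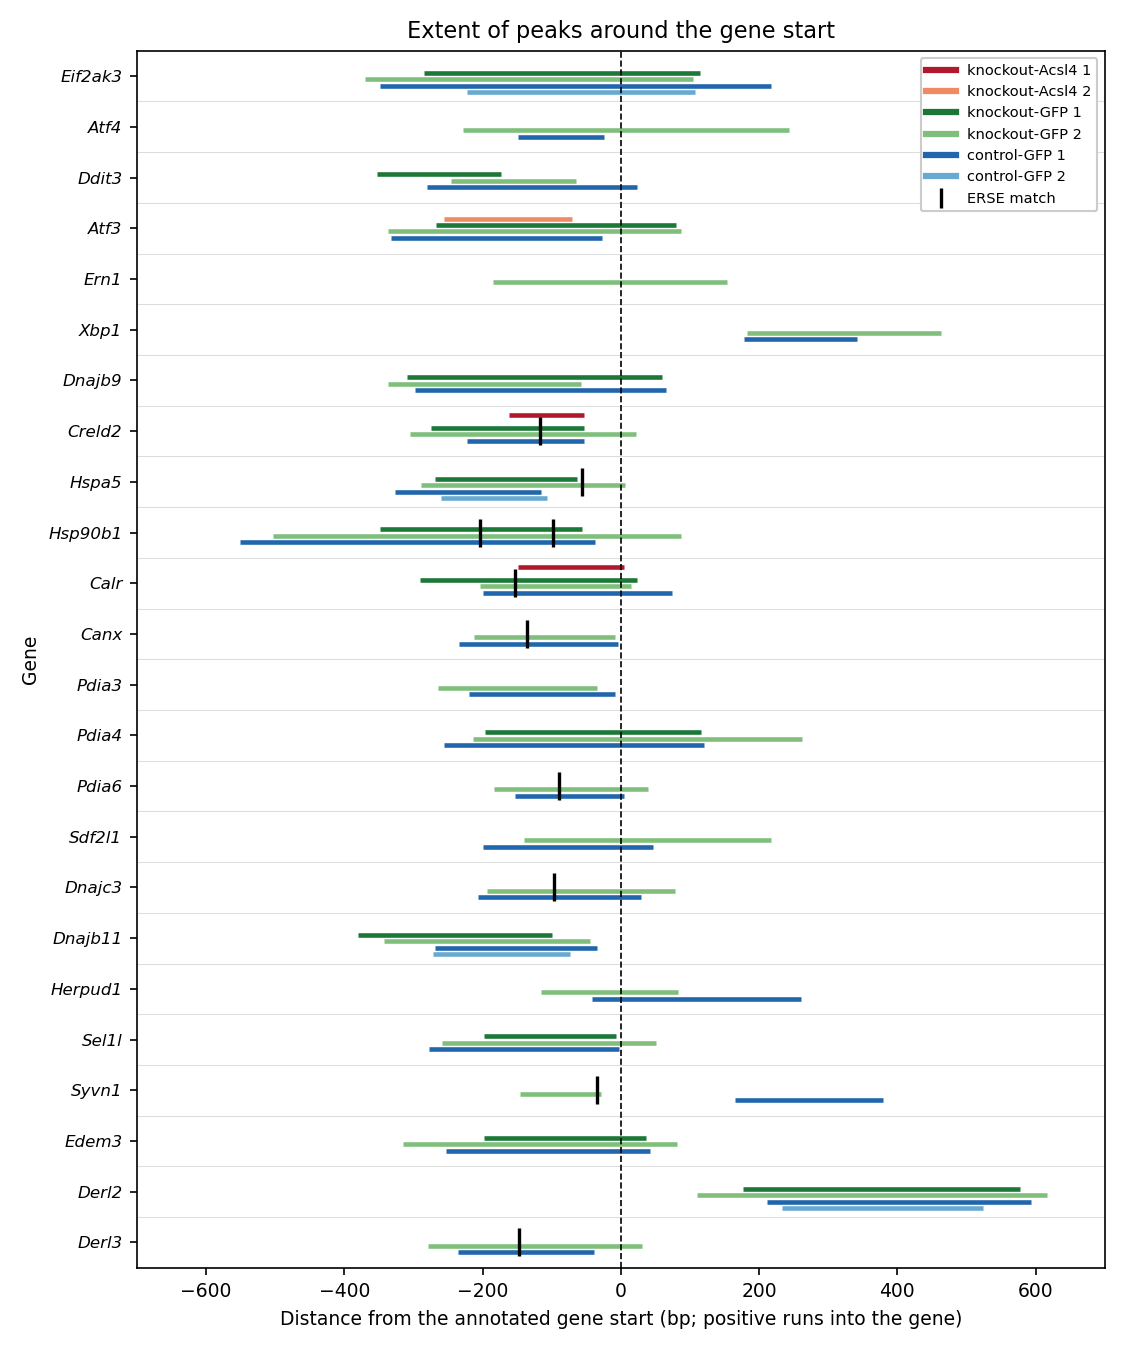
Extent of each gene-end peak around the annotated start (x axis, bp, positive into the gene) for the 24 marked genes of known strand, coloured by library, with black ticks at ERSE matches. The centre lies upstream of the start in 56 of 67 peaks, and peaks of 1 gene stack over each other except at Syvn1; Xbp1 and Derl2 lie to the right of 0 throughout.

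Among the sensors, Eif2ak3 stood apart from Ern1 and Atf6. Eif2ak3, the gene of PERK (chromosome 6, 70844484 to 70905241), had no peak at its ends in either knockout-Acsl4 library, scores of 8.41 and 20.9 in knockout-GFP 1 and 2, and 21.0 and 4.41 in control-GFP 1 and 2. A score is the authors' deposited value for the peak, read as the −log10 of a q-value, and can be ranked within its list only. Ranked that way, its peaks stood at percentiles 86.6 and 95.9 in knockout-GFP 1 and 2 and at 94.4 and 82.7 in control-GFP 1 and 2. Eif2ak3 was thus high in every list that held it. Ern1, the gene of IRE1 (chromosome 11, 106397620 to 106487796), was marked in knockout-GFP 2 alone, with a score of 6.03 at percentile 48.4. Atf6 (chromosome 1, 170704457 to 170868585) was marked in control-GFP 1 alone, with a score of 2.16 at percentile 5.43 of that list.

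The transcription factors of the PERK arm were marked in 2 to 4 libraries. Ddit3, which encodes CHOP and promotes cell death in prolonged stress, scored 5.92 and 19.0 in knockout-GFP 1 and 2 and 10.8 in control-GFP 1, with none in control-GFP 2 or in knockout-Acsl4. Its start lies 76 bp from that of Mbd6, so its peaks cannot be assigned to Ddit3 alone. Atf4, the main effector of PERK, scored 5.19 in knockout-GFP 2 and 8.47 in control-GFP 1. Atf3, a factor induced by ATF4, was the only gene of the 34 with a peak in knockout-Acsl4 2, where it scored 2.49 at percentile 71.1. It scored 3.93 and 5.80 in knockout-GFP 1 and 2 and 5.05 in control-GFP 1. The 4 Atf3 peaks shared 191183404 to 191183589 on chromosome 1, which is the whole of the knockout-Acsl4 2 peak. Ppp1r15b, a constitutive partner of the eIF2α phosphatase, was marked in knockout-GFP 2 and control-GFP 1. Its stress-induced relative Ppp1r15a and the pseudokinase Trib3, a target of ATF4 and CHOP, were marked in no library.

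In the IRE1 arm, Xbp1 was marked inside the gene and Dnajb9 at its start. Xbp1 (chromosome 11, 5520641 to 5525993) scored 6.45 in knockout-GFP 2 and 6.32 in control-GFP 1. Its peaks shared a stretch 183 to 342 bp downstream of the first base, and no peak overlapped the 300-base promoter stretch. Dnajb9 encodes ERdj4, a co-chaperone of BiP and a target of XBP1. It scored 3.25 and 9.38 in knockout-GFP 1 and 2 and 14.1 in control-GFP 1, and had no peak in control-GFP 2 or in knockout-Acsl4.

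Creld2 and Manf, targets of the ATF6 branch, were both marked in knockout-GFP 2 and control-GFP 1. Creld2 was 1 of only 2 genes with a peak in knockout-Acsl4 1, with a score of 3.23 at percentile 39.2. It scored 3.43 and 13.4 in knockout-GFP 1 and 2 and 10.6 in control-GFP 1. The peaks shared 88819484 to 88819592 on chromosome 15, which holds the ERSE printed above, and the start of Alg12 lies 328 bp from that of Creld2. Manf, a secreted factor that protects beta cells in mice, scored 8.24 in knockout-GFP 2 and 9.23 in control-GFP 1. The far end of Dock3 lies 887 bp from the marked end of Manf.

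The chaperones Hspa5, Calr and Dnajb11 were marked in 4 libraries each, Hspa5 and Dnajb11 in all GFP libraries and Calr in knockout-Acsl4 1 in place of control-GFP 2. Hspa5 encodes BiP, which holds the sensors inactive until unfolded protein draws it away (chromosome 2, 34772090 to 34776529). It had no peak in either knockout-Acsl4 library, scores of 2.59 and 12.1 in knockout-GFP 1 and 2, and 9.87 and 6.05 in control-GFP 1 and 2. Its percentile was 18.2 in knockout-GFP 1 and 84.6 in knockout-GFP 2, and 75.8 and 89.9 in control-GFP 1 and 2, so the libraries of the knockout group did not rank it alike. Calr, the calcium-binding lectin chaperone calreticulin, scored 9.23 in knockout-Acsl4 1, 6.13 and 18.3 in knockout-GFP 1 and 2, and 20.0 in control-GFP 1. Dnajb11, the BiP co-chaperone ERdj3, scored 4.08 and 4.92 in knockout-GFP 1 and 2 and 5.91 and 6.30 in control-GFP 1 and 2. Its upstream end lies 150 bp from an end of Tbccd1.

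Hsp90b1 and Pdia4 were marked in both knockout-GFP libraries and in control-GFP 1. Hsp90b1, the ER-resident Hsp90 GRP94, scored 7.99 and 14.5 in knockout-GFP 1 and 2 and 8.42 in control-GFP 1, and its peak in knockout-GFP 2 was the widest of the set at 591 bp. The start of Ttc41 lies 367 bp away. Pdia4, a disulfide isomerase, scored 4.76 and 5.36 in knockout-GFP 1 and 2 and 9.50 in control-GFP 1. The remaining 6, Canx, Pdia3, Pdia6, Hyou1, Sdf2l1 and Dnajc3, were marked in knockout-GFP 2 and control-GFP 1 and in no other library. Their scores ran from 4.66 (Sdf2l1) to 15.8 (Canx) in knockout-GFP 2 and from 5.51 (Pdia3) to 11.6 (Dnajc3) in control-GFP 1. The start of Catsper2 lies 696 bp from that of Pdia3.

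In the ERAD group the core ligase scaffold Sel1l had the strongest peak of the set. Sel1l, which joins the ligase HRD1 to its substrates and is needed for beta cell identity in mice, scored 8.63 and 12.9 in knockout-GFP 1 and 2 and 38.1 in control-GFP 1. These are percentiles 87.5 and 86.8 in knockout-GFP 1 and 2 and 98.1 in control-GFP 1, and no other library marked it. Edem3, a mannosidase that commits glycoproteins to degradation, scored 5.65 and 22.3 in knockout-GFP 1 and 2 and 16.9 in control-GFP 1. Derl2, a membrane protein of the export channel, was marked in 4 libraries, with 9.45 and 9.87 in knockout-GFP 1 and 2 and 6.79 and 5.80 in control-GFP 1 and 2. Its peaks lay 363.0 to 402.0 bp inside the gene by their centres. That is where Mis12, a kinetochore gene, starts on the other strand, 273 bp inside Derl2. A second RefSeq start of Derl2 lies nearby as well, so these peaks cannot be assigned to 1 gene.

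The ERAD genes Herpud1, Syvn1, Derl1 and Derl3 were marked in knockout-GFP 2 and control-GFP 1 only. Derl1 ranked far apart in them, with a score of 2.72 at percentile 9.31 in knockout-GFP 2 and 14.3 at percentile 87.5 in control-GFP 1. Syvn1 and Herpud1 ranked low in control-GFP 1, at percentiles 24.9 and 24.5.

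Of the 5 unmarked genes, Edem1 carried peaks that the window did not reach. Edem1, a lectin-like ERAD factor (chromosome 6, 108824045 to 108859356), has its promoter stretch in the RefSeq table at 108828391 to 108828690, inside the gene as the gene table draws it. Peaks lay over that stretch at 108828390 to 108828587 in knockout-GFP 1, 108828387 to 108828645 in knockout-GFP 2 and 108828336 to 108828710 in control-GFP 1. Their scores were 8.27 and 9.94 in knockout-GFP 1 and 2 and 18.2 in control-GFP 1. With every RefSeq start counted as well, a choice made after the data were seen, Edem1 was the only gene gained, and 14, 29 and 29 genes were marked in these 3 libraries. Edem2, Os9, Trib3 and Ppp1r15a still had no peak. A peak inside a member gene and away from its ends was found in Edem1 and in Eif2ak3 only, at Eif2ak3 from 70872266 to 70872489 on chromosome 6 in knockout-GFP 2.

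The effect of added Acsl4 in islets whose beta cells lack Rictor is addressed by setting knockout-Acsl4 beside knockout-GFP. No gene of the 34 was marked in both knockout-Acsl4 libraries and in neither knockout-GFP library, a pattern that 0.00914% of all genes had. The reverse pattern was found at 10 of 34, against 5.79% of all genes. These were Eif2ak3 and Ddit3 of the PERK arm, Dnajb9 of the IRE1 arm, the chaperones Hspa5, Hsp90b1, Pdia4 and Dnajb11, and the ERAD genes Sel1l, Edem3 and Derl2. Of the 13 genes marked in both knockout-GFP libraries, 10 had it, and of all genes so marked 1266 of 1445 (87.6%) had it. The 3 without it were Atf3, Creld2 and Calr. With knockout-GFP 1 left out the count was 25, against 15.9% of all genes. Of genes marked in knockout-GFP 2, that is 25 of 28 in the set and 3487 of 3786 over all genes. The count was 12 when knockout-Acsl4 1 was left out, against 6.38% of all genes, and 11 when knockout-Acsl4 2 was, against 5.97%. With every list shortened to its 525 strongest peaks, 2 genes were left, Eif2ak3 and Hsp90b1. At that length knockout-Acsl4 1 and 2 marked only 1.02% and 0.0868% of all genes. The share of all genes with the pattern was not counted at that length. Knockout-Acsl4 1 and 2 marked 224 and 344 genes in all and had 12 in common, none of them of the set. Genes were not tested one by one, since with 2 libraries in each group the smallest two-sided p of an exact permutation test is 0.333.

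The effect of the loss of Rictor is addressed by setting knockout-GFP beside control-GFP. No gene of the 34 was marked in both knockout-GFP libraries and neither control-GFP library, or the reverse. Over all genes these patterns had shares of 1.04% and 0.0914%. All 13 genes marked in knockout-GFP 1 were also marked in knockout-GFP 2 and in control-GFP 1. Of all genes marked in knockout-GFP 1, 80.6% were also marked in knockout-GFP 2 and 75.7% in control-GFP 1. The libraries knockout-GFP 2 and control-GFP 1 marked 28 genes each and had 27 in common, with Ern1 in knockout-GFP 2 only and Atf6 in control-GFP 1 only. Over all genes 2540 were marked in both, which is 67.1% of those in knockout-GFP 2 and 69.6% of those in control-GFP 1. Control-GFP 2 marked Eif2ak3, Hspa5, Dnajb11 and Derl2, which every GFP library marked. With control-GFP 1 left out, 9 genes were marked in both knockout-GFP libraries and not in control-GFP 2, against 5.59% of all genes. Ddit3, Hsp90b1, Calr and Sel1l were among them. Of genes marked in both knockout-GFP libraries, that is 9 of 13 in the set and 1223 of 1445 over all genes. With control-GFP 2 left out there were 0, against 1.08% of all genes, and Atf6 alone had the reverse pattern, against 4.40%. With knockout-GFP 1 left out, Ern1 alone was marked in knockout-GFP only, against 5.54% of all genes. With every list at its 525 strongest peaks, it was Hsp90b1, and the share of all genes was not counted.

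Both changes together are addressed by setting knockout-Acsl4 beside control-GFP, with libraries that the comparisons above also use. No gene was marked in both knockout-Acsl4 libraries and neither control-GFP library, against 0.00457% of all genes. The reverse held for 4 genes, Eif2ak3, Hspa5, Dnajb11 and Derl2, against 1.32% of all genes. These 4 were all of the genes marked in both control-GFP libraries, and over all genes 289 of 348 (83.0%) so marked had the pattern. With control-GFP 2 left out the count was 25, against 15.3% of all genes. Of genes marked in control-GFP 1, that is 25 of 28 in the set and 3358 of 3650 over all genes. The count was 4 with knockout-Acsl4 1 or 2 left out, against 1.52% and 1.38%. At equal list lengths Eif2ak3 alone was left, and the share of all genes was not counted.

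The promoters of the set were rich in CpG. The ratio of observed to expected CpG in the promoter stretch had a median of 0.843 over the 29 genes with an entry, against 0.577 over 17491 protein-coding genes. A ratio of at least 0.6, a customary bound for CpG islands, was reached by 27 of 29, against 48.4% of all genes. The GC content had a median of 63.0%, against 56.3%. CpG-rich genes were marked more often in general. Of all genes at or above 0.6, 2.11% were marked in each of knockout-Acsl4 1 and 2, 15.9% and 32.8% in knockout-GFP 1 and 2, and 30.2% and 3.79% in control-GFP 1 and 2. Below 0.6 the shares were 0.177% and 1.05%, 1.83% and 4.23%, and 4.90% and 0.521% in these same libraries. Of the 27 CpG-rich genes of the set, 2 and 1 were marked in knockout-Acsl4 1 and 2, 13 and 23 in knockout-GFP 1 and 2, and 22 and 4 in control-GFP 1 and 2. The part of CpG content in the marked share was not tested. Among the genes with no gene-end peak, the ratio was 0.861 at Trib3, 1.13 at Ppp1r15a, 0.748 at Os9 and 0.599 at Edem2. It was 0.895 at Edem1, whose promoter stretch lay under the peaks inside the gene described above.

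**Figure D4:**
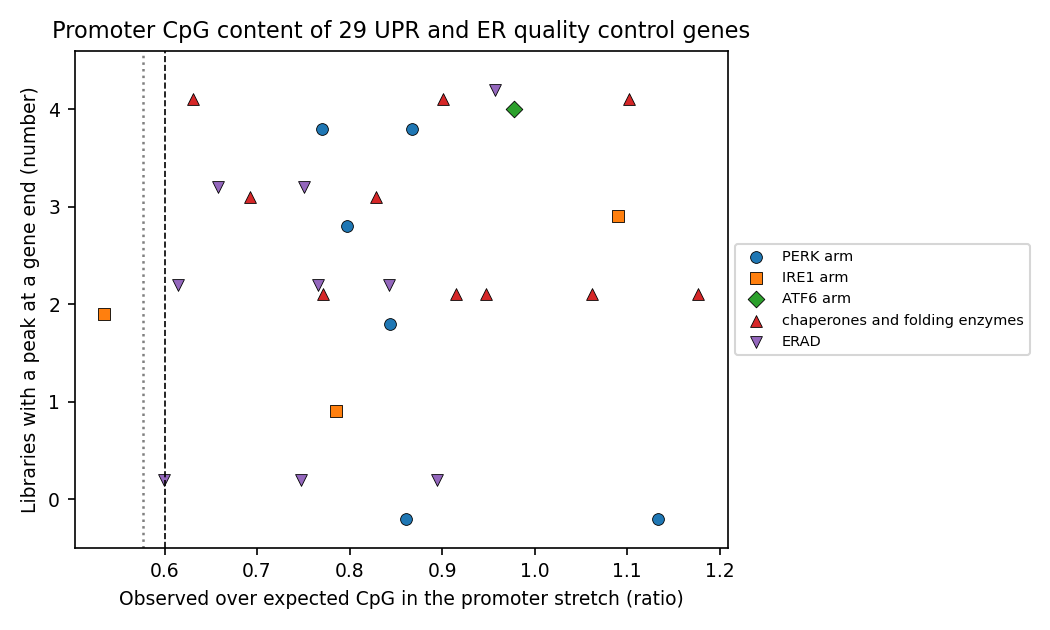
Observed over expected CpG in the 300-base promoter stretch (x axis, ratio) against the number of libraries with a gene-end peak (y axis, points shifted slightly by arm) for 29 genes. The dashed line marks 0.6 and the dotted line the median of all genes, 0.577; 27 genes lie to the right of the dashed line, 4 of them with no peak.

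A wider list held 60 pathway genes outside the set. It had 2 and 0 marked genes in knockout-Acsl4 1 and 2, 14 and 27 in knockout-GFP 1 and 2, and 28 and 3 in control-GFP 1 and 2. In the same order, the shares of all genes were 1.02% and 1.57%, 8.19% and 17.3%, and 16.7% and 2.00%. Eif2s1, which encodes the eIF2α that PERK phosphorylates, was marked in all GFP libraries, and Rnf5, a ubiquitin ligase of the ER membrane, in knockout-Acsl4 1, both knockout-GFP libraries and control-GFP 1. Atf5, a factor downstream of eIF2α phosphorylation, was the only gene of the 60 marked in knockout-GFP 1 and 2 but in no control-GFP library, a pattern of 1.04% of all genes. Of the 60, 10 were marked in knockout-GFP 1 and 2 but in no knockout-Acsl4 library, against 5.79% of all genes. Rnf5 was the only other gene of the 60 marked in both knockout-GFP libraries. Of all genes marked in both, 1266 of 1445 (87.6%) had the pattern. Among the 10 were P4hb, the main protein disulfide isomerase, Erp44, which retains oxidoreductases in the ER, and Serp1, which guards membrane proteins under stress. In the other comparison with knockout-Acsl4, Eif2s1, Cebpg and Rnf139 were marked in control-GFP 1 and 2 but in no knockout-Acsl4 library, against 1.32% of all genes. No other gene of the 60 was marked in both control-GFP libraries, and over all genes so marked 289 of 348 (83.0%) had the pattern. Wfs1, the gene of Wolfram syndrome and an ER protein of beta cells, was marked in knockout-GFP 2 and control-GFP 1. Within the wider list, these libraries marked 8 and 6 of 10 genes of PERK and the integrated stress response. They marked 7 and 8 of 16 ERAD genes and 8 and 10 of 19 folding genes. In each of them 2 of 8 genes of IRE1 and cell death were marked. The same held for 2 of 7 genes of ATF6 processing and the CREB3 family.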

How the data were processed

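ATAC-seq was performed on 6 islet libraries, 2 for each of 3 groups, amplified with 12 PCR cycles and sequenced as paired reads of 50 bp, per the labels' protocols. The authors deposited a peak list for each library, with a position and a value, read here as a −log10 q-value. No header states this; the reading rests on the lowest value of each list, slightly over 1.30, which corresponds to a q of 0.05. Per the submitters' processing notes, the tools included MACS2 2.1.1, BWA 0.7.10, Trimmomatic, FastQC and SAMtools, in roles that are not stated. These notes name human builds, but coordinates were treated as mouse GRCm38. This rests on its gene ends, which held 67.1% and 75.5% of the peaks in knockout-GFP 1 and 2 and 70.9% in control-GFP 1. The shares were lower in the other lists, with 35.8% and 5.28% in knockout-Acsl4 1 and 2 and 21.7% in control-GFP 2. Coordinates are 1-based.

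Marking used an overlap of at least 1 bp with 1000 bp on either side of both gene ends (protein-coding genes of the RefSeq GRCm38.p6 table, without the mitochondrial ones). Score percentiles rank a peak in its own list. Promoter sequence, strand and motifs came from the RefSeq promoter table, and 17491 protein-coding genes matched it. Alternatives were 3000 bp, the gene start only, equal list lengths of 525 peaks, a score of at least 2, at least 50% of the peak in the window, and each library left out; counting every start of the promoter table was added after the data were seen. The members, arms and lists were chosen with earlier results of these data known. Genes given in full were the sensors, Atf4, Xbp1, Ddit3, Atf3, those marked in 4 or more libraries, and those with a both-against-neither pattern; Edem1, Manf, Derl1, Syvn1 and Herpud1 were singled out after their values were seen. Calculations used Python 3.11.15, pandas 2.3.3 and scipy 1.17.1, and were checked on peaks placed at known gene ends.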

Additional observations from a re-analysis of the deposited data

How the results depend on the processing

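Counts of marked genes kept within 1.5 times their value, and the count of each pattern did so too, with 3000 bp, the gene start only, a score of at least 2, at least 50% of the peak in the window, and every RefSeq start counted. At equal list lengths of 525 peaks the set had 2 and 0 marked genes in knockout-Acsl4 1 and 2, 4 and 8 in knockout-GFP 1 and 2, and 4 and 4 in control-GFP 1 and 2. The marked share of all genes was then 1.02% and 0.0868% in knockout-Acsl4 1 and 2, 1.90% and 1.92% in knockout-GFP 1 and 2, and 1.90% and 0.877% in control-GFP 1 and 2. Genes marked in both knockout-GFP libraries then numbered 2 with neither knockout-Acsl4 library and 1, Hsp90b1, with neither control-GFP library, and 1, Eif2ak3, was marked in control-GFP 1 and 2 but in no knockout-Acsl4 library. The shares of all genes with these patterns were not counted at that length. Shorter lists hold fewer peaks by construction. With each library left out in turn, the count for both knockout-GFP and neither knockout-Acsl4 ran from 10 to 25, the highest without knockout-GFP 1, and that for both control-GFP and neither knockout-Acsl4 from 4 to 25, the highest without control-GFP 2. The count for both knockout-GFP and neither control-GFP ran from 0 to 9, with 9 without control-GFP 1 and 1, Ern1, without knockout-GFP 1, and the reverse from 0 to 1, with Atf6 without control-GFP 2. Both patterns led by knockout-Acsl4 stayed at 0 throughout. No paired analysis was possible because the results come from counts with no test. Without read counts, a gene with no peak cannot be told apart from an open gene below the peak caller's threshold.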

Other observations

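In the set 7 of 34 genes were marked in 4 libraries, 6 in 3, 14 in 2, 2 in 1 and 5 in 0. Over all protein-coding genes 1.40% were marked in 4 libraries, 4.89% in 3, 7.43% in 2, 10.5% in 1 and 75.5% in 0.

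Peaks at the marked genes of the set had median score percentiles of 68.4 in each of knockout-GFP 1 and 2 and 71.5 in control-GFP 1. The medians for all marked genes were 54.4 and 52.9 in knockout-GFP 1 and 2 and 55.7 in control-GFP 1.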
